A study of Rattus norvegicus with 6 samples.

Results

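The 6 genes described here encode the transcription factor NRF2 (Nfe2l2) and 5 antioxidant enzymes: heme oxygenase 1 (Hmox1), NAD(P)H quinone dehydrogenase 1 (Nqo1), cytosolic and mitochondrial superoxide dismutase (Sod1 and Sod2) and catalase (Cat). They were chosen by Ensembl gene ID, and all 6 were found among the 30562 IDs of the count table. RNA was measured by sequencing of oligo(dT)-enriched libraries from facial nerve tissue of wild type rats on day 14 after injury. In the FNI group (facial nerve injury model, 3 libraries) the nerve was injured, and in the C-Gel-light group (3 libraries) the injured nerve also received the treatment of that name, which the series title ties to Chlorella hydrogels that make oxygen in light. Both groups carry the injury, while uninjured nerve, the gel by itself and light by itself were not analysed here. How the nerve was injured, the strain, age and sex of the rats and whether each library came from its own animal are not given in the sources used here, so p-values measure the spread between libraries, which may be technical. Every library has a batch number of its own in the labels, so batch and group cannot be told apart.

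NRF2 is held at a low level by its partner KEAP1, which marks it for degradation. Oxidants and electrophiles modify KEAP1, and NRF2 then accumulates, pairs with a small MAF protein and binds the antioxidant response element, a short DNA motif near its target genes. Hmox1 and Nqo1 are standard targets. Hmox1 is also induced by heme, through loss of the repressor BACH1, and it is known in macrophages that clear red cells. Sod1 and Sod2 turn superoxide into hydrogen peroxide in different compartments, and catalase then removes the peroxide. All 3 are expressed in most cells and have other regulators besides NRF2.

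Nqo1 rose with C-Gel-light by 2.59-fold (95% interval 1.69 to 3.95), and it was the 1 gene of the 6 to pass the test. The other 5 did not pass in either direction. Hmox1 had a fold change of 0.504 (95% interval 0.272 to 0.933) that rested largely on 1 FNI library. Nfe2l2, Sod1, Sod2 and Cat had fold changes of 0.975 to 1.16, and their groups overlapped in scaled counts. All 6 genes passed the filter on low counts.

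For comparison, 14.8% of the 15581 genes tested passed in either direction (quasi-likelihood F test, edgeR, with a Benjamini-Hochberg adjusted p under 0.05), 7.07% higher and 7.7% lower. A count of 1 called gene of 6 is near what this background gives, so the number called says nothing particular about these genes. The median log2 fold change (C-Gel-light over FNI) of the 6 genes was 0.07, against -0.01 over all tested genes. The median size of the log2 fold change, whatever its direction, was 0.15 for the 6 genes and 0.28 over all tested genes.

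Total counts ran from 22957382 to 28997855 per library. CPM, the share of a library's counts expressed on a common scale, are adjusted by TMM factors, which correct for counts taken up by a few abundant genes. These factors were 0.866 to 0.983 with C-Gel-light and 1.054 to 1.139 in FNI, so the choice of scaling moves every gene. With library totals alone the median log2 fold change of all tested genes was -0.26. The files do not pair IDs with gene names, so the other genes of the NRF2 pathway and markers of Schwann cells, macrophages, muscle and other cell types were not analysed here. The tissue label could therefore not be checked against its markers. In whole tissue, fewer cells of a type and less RNA per cell cannot be told apart.

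The promoter sequences of 3 genes are shown, those of the gene that rose and of 2 that did not pass the test. These 2, Nfe2l2 and Sod2, are the ones whose window held a match to the antioxidant response element core given below. Sod1 and Cat also did not pass, held no such match and are not printed, so the 3 are not a neutral sample. They come from the RefSeq annotation of GRCr8, a different build from the mRatBN7.2 named for the counts, run 5′ to 3′ on the strand of the gene, and end at the base before the annotated start site. A promoter was found for 5 of the 6 genes. That of Hmox1 is not used here. Capitals mark matches to 3 motifs: the antioxidant response element core TGACNNNGC and the GC box GGGCGG on either strand, and the TATA box TATAAA on the strand of the gene.
Nqo1, chr19:52220268-52220517, minus strand: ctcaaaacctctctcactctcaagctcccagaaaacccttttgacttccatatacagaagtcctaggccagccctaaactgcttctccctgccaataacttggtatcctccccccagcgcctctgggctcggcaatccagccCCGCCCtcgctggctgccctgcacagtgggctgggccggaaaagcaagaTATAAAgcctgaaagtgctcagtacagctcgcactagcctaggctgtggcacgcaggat
Nfe2l2, chr3:81029000-81029249, minus strand: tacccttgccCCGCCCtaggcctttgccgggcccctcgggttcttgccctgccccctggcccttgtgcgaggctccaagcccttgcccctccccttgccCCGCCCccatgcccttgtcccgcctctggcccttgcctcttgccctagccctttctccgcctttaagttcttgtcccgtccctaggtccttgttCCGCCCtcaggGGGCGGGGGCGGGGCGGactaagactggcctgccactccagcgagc
Sod2, chr1:50050169-50050418, minus strand: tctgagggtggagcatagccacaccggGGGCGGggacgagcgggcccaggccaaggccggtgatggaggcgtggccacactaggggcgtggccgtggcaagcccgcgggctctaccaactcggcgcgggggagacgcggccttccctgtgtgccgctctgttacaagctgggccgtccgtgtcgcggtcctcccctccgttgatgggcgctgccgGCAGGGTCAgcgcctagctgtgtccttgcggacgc

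The search covered 250 bases before and 50 after each start site. The antioxidant response element core was found in 12.1% of the 33469 promoters of this length in the table. It was not among the letters of the Nqo1 window. Sequence further upstream was not searched for any gene, so the window does not show whether Nqo1 has the element there. Sod2 held 1 match, on the reverse strand at positions -35 to -27. Nfe2l2 held 1 match at positions 39 to 47 after the start site and outside the stretch printed. Positions are counted from 1 at the first transcribed base and from -1 at the base before it. Cat and Sod1 held no match. The AP-1 site TGANTCA, searched on both strands and found in 7.33% of all promoters, was in none of the 5.

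The 5 promoters also differed in their general make-up. The TATA box, found in 8.8% of all promoters, was in Nqo1 at -59 to -54 and in Sod1 at -28 to -23. The GC box, found in 33.1%, was in Nfe2l2 6 times, with a pair of matches that overlap by 1 base, in Sod2 2 times, of which 1 lies after the start site, and in Nqo1 and Sod1 1 time each. None was found in Cat. The GC content of the window was 56.3% in Nqo1, 59.3% in Cat, 61.3% in Sod1, 68% in Nfe2l2 and 72% in Sod2, against a median of 51.7% over all promoters. A match of letters is a description of the window and does not show binding.

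Values of single libraries are given below in the order of replicates 1, 2 and 3 of each group, with FNI first. Nfe2l2 is taken first, since the other genes lie downstream of NRF2 or beside it. Nfe2l2 (ENSRNOG00000001548) was measured at 86.2, 86.9 and 85.5 CPM in FNI and at 78.6, 85.3 and 88.2 CPM with C-Gel-light. The FNI values lay within the range of the C-Gel-light values, so the groups overlapped. The means were 86.2 ± 0.73 CPM in FNI and 84.1 ± 4.95 CPM after treatment (SD, n = 3). The log2 fold change was -0.04 (SE 0.08, 95% interval -0.22 to 0.15, adjusted p = 0.78 by edgeR). In linear terms the interval ran from 0.857-fold to 1.11-fold. These values are of the transcript, and NRF2 activity is set largely at the level of its protein, which was not measured here.

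Nfe2l2 had a low spread between libraries. The SD of its log2 CPM within a group was 0.06, which is at percentile 4.46 of all tested genes, where the median SD was 0.2. This ranking does not take level into account, and by mean FPKM Nfe2l2 stood at percentile 89.2 in FNI and 88.3 with C-Gel-light. The coefficient of variation of its CPM was 0.847% in FNI and 5.89% with C-Gel-light. Counting error in the shallowest library for this gene gives 2.25%, so the 3 FNI values lay closer together than counting error alone would give. With library totals in place of TMM factors its log2 fold change was -0.28 (adjusted p = 0.099 by edgeR), close to the shift of -0.26 that this scaling gives the median gene.

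Nqo1 (ENSRNOG00000012772) encodes a cytosolic enzyme that reduces quinones in a single step of 2 electrons and so keeps them from cycling with oxygen. It had 420, 325 and 204 counts in FNI and 658, 935 and 721 with C-Gel-light. In CPM these were 15, 13.3 and 7.8 in FNI and 26.2, 38 and 29.3 with C-Gel-light. Each treated library was higher than the highest FNI library. The gap between the groups, from 15 to 26.2 CPM, was wider than the counting error of the libraries on either side of it, with 95% Poisson intervals of 13.6 to 16.5 and 24.2 to 28.3 CPM.

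The mean level of Nqo1 was 12 ± 3.77 CPM in FNI and 31.2 ± 6.13 CPM after treatment (SD, n = 3). The log2 fold change was 1.37 (SE 0.26, 95% interval 0.76 to 1.98, adjusted p = 0.02 by edgeR). Among the 1101 genes called higher, Nqo1 ranked 240 by size of fold change, and the median of those genes was 1.8-fold. By unadjusted p it ranked 858 of all 15581 tested genes. Groups that do not overlap in CPM were found for 39.1% of tested genes, and among the 6 genes for Nqo1 alone.

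Of 16 alternative analyses, the direction of Nqo1 was the same in all 16 and the call was lost in 1. Without C-Gel-light replicate 2, which held the highest value, the log2 fold change was 1.21 (adjusted p = 0.054 by edgeR, the highest of the 16, which ran from 1.4e-05). Library totals gave 1.13 (adjusted p = 0.016 by edgeR).

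**Figure D1:**
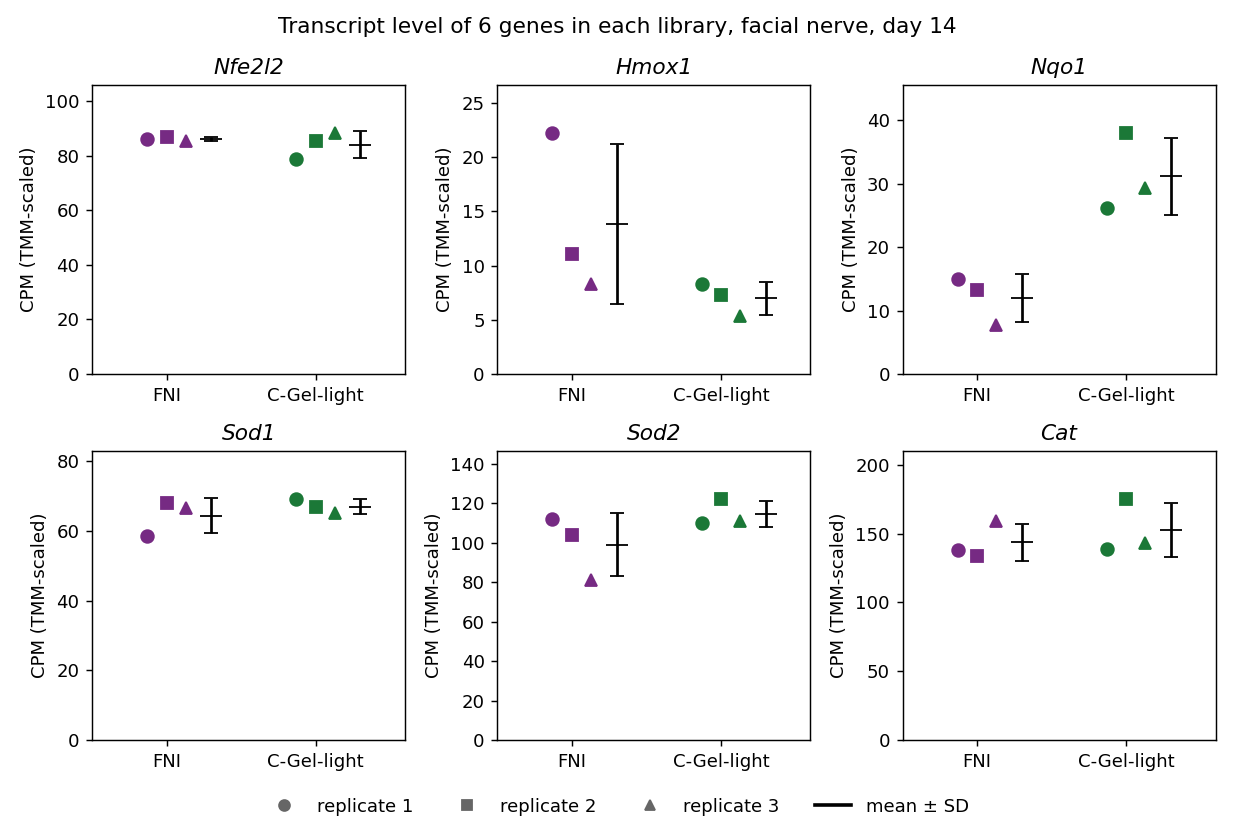
Level of each gene in TMM-scaled CPM (vertical axes, from 0, each with its own range) in the 3 FNI libraries (purple) and the 3 C-Gel-light libraries (green); marker shape gives the replicate number and black bars the mean ± SD. Nqo1 lies at 26.2 to 38 CPM with C-Gel-light and 7.8 to 15 CPM in FNI with no overlap, Hmox1 has 1 FNI library at 22.2 CPM above all others, and the groups of the other 4 genes overlap.

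Hmox1 (ENSRNOG00000014117) encodes the inducible enzyme that breaks heme down to biliverdin, carbon monoxide and iron. It was the least abundant of the 6 genes with C-Gel-light, though not in FNI, and had 622, 271 and 216 counts in FNI and 209, 179 and 132 after treatment. In CPM these were 22.2, 11.1 and 8.26 in FNI and 8.33, 7.28 and 5.36 with C-Gel-light. FNI replicate 1 stood above all other libraries, and FNI replicate 3 lay just below C-Gel-light replicate 1. The 95% Poisson intervals of that last pair, 7.2 to 9.44 and 7.23 to 9.53 CPM, covered nearly the same range.

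The mean level of Hmox1 was 13.9 ± 7.39 CPM in FNI and 6.99 ± 1.5 CPM after treatment (SD, n = 3). The log2 fold change was -0.99 (SE 0.38, 95% interval -1.88 to -0.1) and did not pass the test, with an adjusted p of 0.12 by edgeR and an unadjusted p of 0.034. An unadjusted p under 0.05 was found for 32.4% of all tested genes. Without FNI replicate 1 the log2 fold change was -0.47 (adjusted p = 0.29 by edgeR), so that library alone carried much of the difference. With library totals it was -1.25 (adjusted p = 0.037 by edgeR), past the threshold, and -1.12 with limma on log2(FPKM + 0.1), where the adjusted p was 0.044. FPKM, which divides by library totals and gene length, was 3.41 to 4.66 with C-Gel-light and 6.09 to 15.6 in FNI and did not overlap. Nfe2l2 did not overlap in FPKM either, at 24.9 to 31.7 with C-Gel-light and 33.5 to 35.6 in FNI. The share of all tested genes without overlap in FPKM was not computed, so nothing is read from these separations. With library totals the median log2 fold change of all tested genes was -0.26, and 16.4% of called genes were higher. In TMM-scaled CPM the groups overlapped for both Hmox1 and Nfe2l2. Over the 16 alternatives the adjusted p of Hmox1 ran from 0.037 to 0.29. Hmox1 passed only with library totals and with log2(FPKM + 0.1).

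The spread of Hmox1 was wide in FNI. The SD of its log2 CPM was 0.73 among FNI libraries and 0.32 among C-Gel-light libraries, and over both groups it was 0.56, at percentile 87.6 of tested genes. The coefficient of variation of its CPM was 53.3% in FNI and 21.5% with C-Gel-light, while counting error in the shallowest library for this gene gives 8.7%. The spread between libraries therefore exceeded counting error in both groups. The cells that carried the Hmox1 transcripts of FNI replicate 1 could not be named, since marker genes were not analysed here.

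Nqo1 and Hmox1, both targets of NRF2, had fold changes of opposite sign, of which that of Nqo1 passed the test and that of Hmox1 did not. Their ratio within a library does not depend on how libraries are scaled to each other. The ratio of Nqo1 to Hmox1 in FPKM was 0.616, 1.09 and 0.862 in FNI and 2.87, 4.77 and 4.98 with C-Gel-light. Nqo1 exceeded Hmox1 in each C-Gel-light library, and in FNI only in replicate 2. The difference of the mean log2 ratio was 2.29, or 4.9-fold, and without FNI replicate 1 it was 2.07. This ratio was chosen after its values were seen and is given with no test.

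Against Nfe2l2, the ratio of Nqo1 in FPKM was 0.281, 0.247 and 0.147 in FNI and 0.537, 0.718 and 0.535 with C-Gel-light. The groups did not overlap, and the mean log2 ratio was higher with C-Gel-light by 1.45. The two-sided exact permutation p was 0.1, the smallest that 3 against 3 libraries allow, and 0.4 after Benjamini-Hochberg adjustment over the 4 ratios tested. The ratio of Hmox1 to Nfe2l2 was 0.456, 0.226 and 0.171 in FNI and 0.187, 0.151 and 0.107 with C-Gel-light. Here the groups overlapped, and the difference of the mean log2 ratio was -0.85 (exact permutation p = 0.2, adjusted 0.4). Without FNI replicate 1 it was -0.44.

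**Figure D2:**
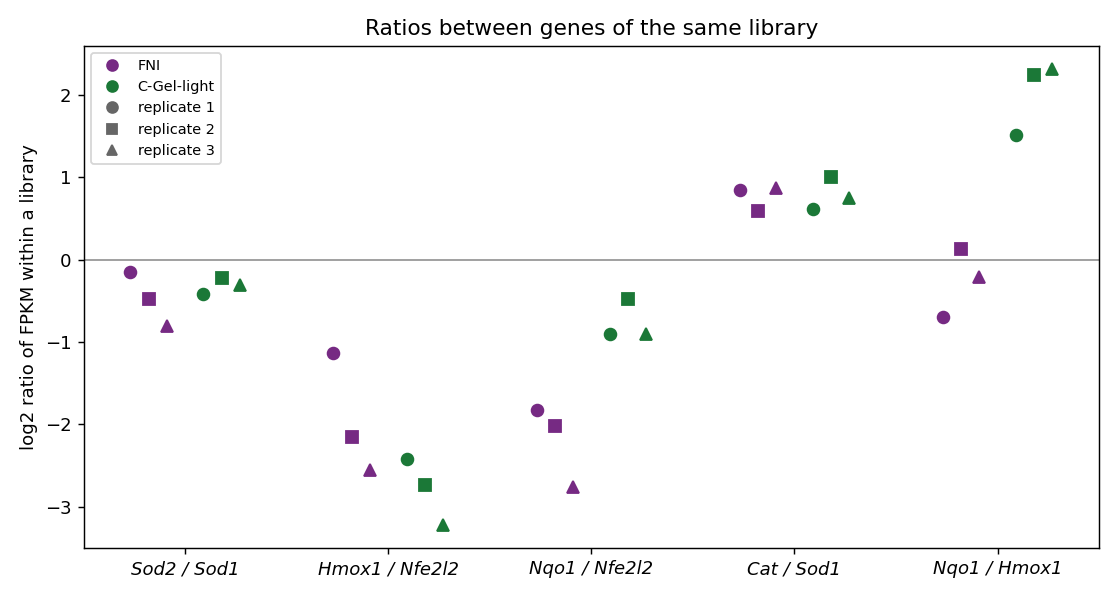
Log2 ratio of FPKM between pairs of genes of the same library (vertical axis; 0 is equal level), with FNI in purple, C-Gel-light in green and marker shape for the replicate. The groups do not overlap for Nqo1 / Nfe2l2 and Nqo1 / Hmox1, while they overlap for Sod2 / Sod1, Hmox1 / Nfe2l2 and Cat / Sod1.

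Superoxide dismutases turn superoxide into hydrogen peroxide, with copper and zinc in the cytosolic enzyme and manganese in the mitochondrial one. Sod1 (ENSRNOG00000002115) was measured at 58.6, 67.9 and 66.6 CPM in FNI and at 69.1, 66.7 and 65 CPM with C-Gel-light. The groups overlapped, with FNI replicate 1 the lowest library. The log2 fold change was 0.06 (SE 0.09, 95% interval -0.15 to 0.26, adjusted p = 0.69 by edgeR), which in linear terms is 0.903-fold to 1.2-fold.

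Sod2 (ENSRNOG00000019048) was measured at 112, 104 and 80.9 CPM in FNI and at 110, 122 and 111 CPM with C-Gel-light. FNI replicate 3 lay below all other libraries, and FNI replicate 1 lay among those of C-Gel-light. The log2 fold change was 0.21 (SE 0.13, 95% interval -0.1 to 0.52, adjusted p = 0.31 by edgeR), or 0.933-fold to 1.43-fold. Without FNI replicate 3 it was 0.08. The SD of log2 CPM was 0.25 among FNI libraries and 0.08 among C-Gel-light libraries.

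The groups overlapped in the ratio of the mitochondrial to the cytosolic transcript. The ratio of Sod2 to Sod1 in FPKM was 0.899, 0.716 and 0.571 in FNI and 0.746, 0.858 and 0.805 with C-Gel-light. Sod1 was thus the higher of the pair, per length, in all 6 libraries. The mean log2 ratio was higher with C-Gel-light by 0.16 (exact permutation p = 0.6, adjusted 0.8). The difference was -0.0012 without FNI replicate 3 and 0.33 without FNI replicate 1. With 3 against 3 libraries this test cannot go below 0.1, so it does not show equal ratios.

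Catalase is the peroxisomal enzyme that splits hydrogen peroxide into water and oxygen. Cat (ENSRNOG00000008364) was measured at 138, 134 and 159 CPM in FNI and at 139, 175 and 143 CPM with C-Gel-light. The highest library was C-Gel-light replicate 2, FNI replicate 3 came next, and the groups overlapped. The log2 fold change was 0.08 (SE 0.12, 95% interval -0.21 to 0.37, adjusted p = 0.68 by edgeR), or 0.866-fold to 1.3-fold. The ratio of Cat to Sod1 in FPKM was 1.72 ± 0.179 in FNI and 1.74 ± 0.238 after treatment (SD, n = 3). The mean log2 ratio differed by 0.02 (exact permutation p = 0.9, adjusted 0.9).

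For Nfe2l2, Sod1, Sod2 and Cat a p that misses the threshold does not show equal levels. With TMM factors the intervals give a limit on size. For these 4 genes the upper bounds were 1.11-fold, 1.2-fold, 1.43-fold and 1.3-fold. The lower bounds were 0.857-fold, 0.903-fold, 0.933-fold and 0.866-fold. These bounds do not cover the choice of scaling. With library totals the log2 fold changes of Nfe2l2 and Sod1 were -0.28 and -0.2. Both lay below the lower bounds with TMM factors, which were -0.22 and -0.15 on the log2 scale. The signs of Sod1, Sod2 and Cat were positive with TMM factors and negative with library totals, at -0.2, -0.04 and -0.17, so no direction is given for them. In no alternative did any of these 4 genes pass the threshold.

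**Figure D3:**
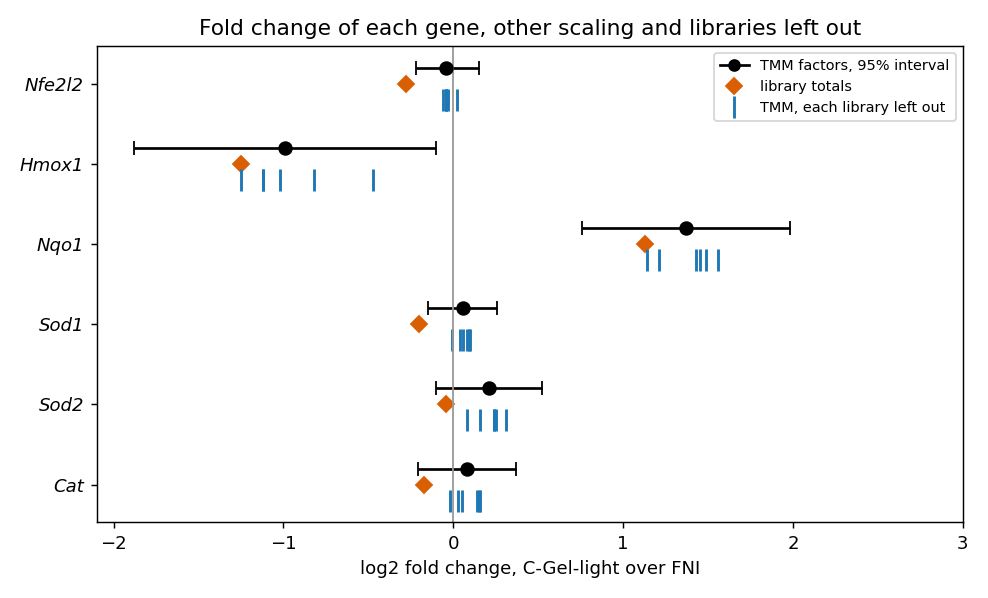
Log2 fold change of C-Gel-light over FNI (horizontal axis) for each gene, with TMM factors and the 95% interval (black), with library totals (orange diamonds) and with each of the 6 libraries left out in turn (blue ticks). The ticks of Nqo1 run from 1.14 to 1.56, those of Hmox1 from -1.25 to -0.47, and those of the other 4 genes from -0.06 to 0.31.

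Levels of different genes were compared per length, in FPKM. Cat was the highest in all 6 libraries, at 66.1 ± 8.96 FPKM in FNI and 58.6 ± 7.87 FPKM after treatment (SD, n = 3). Sod1 came next in all 6 libraries, at 38.6 ± 3.43 FPKM in FNI and 33.6 ± 1.21 FPKM after treatment. Nfe2l2 had 34.5 ± 1.08 and 28.3 ± 3.41 FPKM in the same order of groups, and Sod2 27.7 ± 3.8 and 27 ± 2.21 FPKM. Nfe2l2 and Sod2 overlapped with C-Gel-light, where their order changed between libraries, and Sod1 and Nfe2l2 overlapped in FNI.

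The 2 inducible enzymes took the lowest places, and their order differed between the groups. Nqo1 was at 7.71 ± 2.23 FPKM in FNI and 16.9 ± 3.44 FPKM after treatment, while Hmox1 was at 9.74 ± 5.1 and 4.11 ± 0.639 FPKM (SD, n = 3). Nqo1 and Hmox1 overlapped in FNI and did not with C-Gel-light. Among all tested genes ranked by mean FPKM within a group, Nqo1 stood at percentile 52.5 in FNI and 78.7 with C-Gel-light. Hmox1 stood at percentile 59.3 in FNI and 41 with C-Gel-light. The other 4 genes stood at percentiles 85.7 to 95.4 in both groups. The gene lengths behind these FPKM values were 2380 bases for Cat, 1822 for Sod1, 2730 for Nfe2l2, 3881 for Sod2, 1694 for Nqo1 and 1546 for Hmox1, and an error in a length would shift that gene against the others in every library alike. The length of Sod1 was not checked against transcript models; a shorter one would raise Sod1 in FPKM, so its place below Cat and above Sod2, and the levels of the Sod2 to Sod1 and Cat to Sod1 ratios, rest on it. The differences of these ratios between the groups do not.

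**Figure D4:**
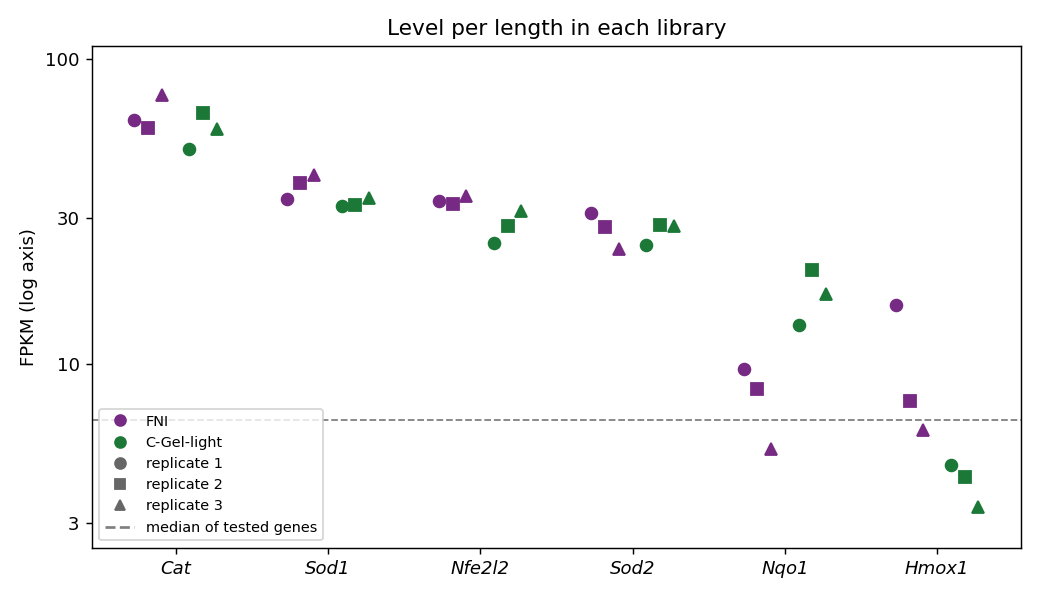
FPKM of each gene in each library on a log axis, with FNI in purple, C-Gel-light in green and marker shape for the replicate; the dashed line is the median of all tested genes, 6.53 FPKM. Cat and Sod1 lead in every library, and Nqo1 lies above Hmox1 in all 3 C-Gel-light libraries.

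The genes whose pattern over the 6 libraries was most like that of Nqo1 were found by Pearson correlation of log2 CPM, as a description. Among 10367 other genes whose log2 CPM averaged 3 or more, ENSRNOG00000001454 had r = 0.998 and ENSRNOG00000018646 had r = 0.996. ENSRNOG00000018646 had 86.2, 83.1 and 56.4 CPM in FNI and 147, 207 and 159 CPM with C-Gel-light, and changed by 1.18 on the log2 scale (SE 0.2, edgeR adjusted p = 0.014). ENSRNOG00000001454 followed the same order of libraries over a far smaller range, 240, 236 and 224 against 255, 266 and 256 CPM, with a log2 fold change of 0.15 (adjusted p = 0.28 by edgeR). Of these 10367 genes, 361 had an r of at least 0.95, and how many would be found without a link to Nqo1 was not tested. The correlation takes in the difference between the groups and does not measure its size.

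**Figure D5:**
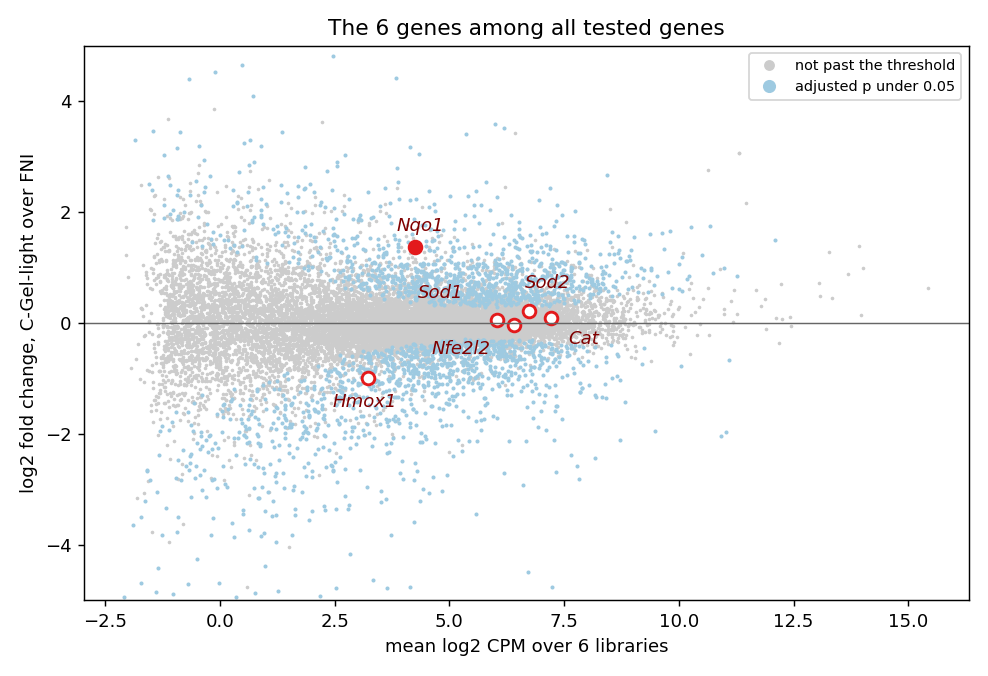
Log2 fold change of C-Gel-light over FNI (vertical axis) against mean log2 CPM (horizontal axis) for all 15581 tested genes, in blue where the adjusted p was under 0.05, with the 6 genes circled in red (filled where called) and 34 genes beyond the vertical axis not shown. Nqo1 lies at 1.37 among called genes, Hmox1 at -0.99 is not called, and Nfe2l2, Sod1, Sod2 and Cat lie between -0.04 and 0.21 among abundant genes.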

How the data were processed

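A table of whole-number read counts by Ensembl ID and a table of FPKM for each library were deposited by the authors. Per the submitters' processing notes, the tools were STAR 2.4.2a, FastQC 0.11.9, RSEM 1.2.29 and fastp 0.22.0, with edgeR 3.28.1, on mRatBN7.2, in no stated role or order. RSEM splits reads that fit several genes; whether it made these counts, and whether any of the 6 genes has such reads, was not tested. The deposited FPKM equalled count over column total and a fixed gene length in 100% of the 22044 genes with a count, within 0.5 bases, so it is no separate measurement. Groups and replicate numbers come from the sample titles. Symbols come from the list of IDs that defined the gene set. The RefSeq table (GRCr8) holds 0 Ensembl IDs.

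Genes kept by filterByExpr (minimum count 10) were tested with edgeR 4.0.16 in R 4.3.3: TMM factors, robust quasi-likelihood F test, group as the only term, two-sided, adjusted over all tested genes. The SE is the log2 fold change over the square root of F, and intervals use its t distribution. Log2 CPM used a prior count of 2. DESeq2 1.42.0, limma 3.58.1 (voom, and log2 FPKM with pseudocounts of 1 and 0.1), other factors, no filter, no robust dispersion, the replicate block and each library left out were tried. The test was tried on simulated data. Poisson intervals cover counting error only. No libraries of a group were alike within counting noise (chi-square per degree of freedom of at least 27.05). The rule for named genes took all 6 genes and the 2 most like the one with the smallest p. The genes, ratios, lists and tests were chosen with earlier results of these data known.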

Additional observations from a re-analysis of the deposited data

How the results depend on the processing

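Against 2301 genes changed (47.8% higher), DESeq2 gave 3618, library totals 3937 (16.4% higher), and limma on log2(FPKM + 1) and log2(FPKM + 0.1) 3654 and 3741 (16.8% and 16.9% higher). Leaving out 1 library gave 797 to 1726, the lowest without FNI replicate 1; it was 849 without FNI replicate 3, 1204 without C-Gel-light replicate 1 and 1153 without C-Gel-light replicate 2. The causes were not tested, though fewer samples give fewer calls and FPKM is scaled by totals by construction.

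Nqo1 ran from 1.06 to 1.56 (log2), with an adjusted p of 1.4e-05 to 0.054, and from 1.14 to 1.56 with a library left out. Hmox1 ran from -1.25 to -0.47, both with a library left out, with an adjusted p of 0.037 to 0.29; it passed with library totals (-1.25) and log2(FPKM + 0.1) (-1.12). With library totals, log2(FPKM + 1) and log2(FPKM + 0.1), Sod1 was -0.2, -0.19 and -0.19, Sod2 -0.04, -0.03 and -0.03, and Cat -0.17, -0.17 and -0.17. With a library left out, Nfe2l2 ran from -0.06 to 0.02, Sod1 from -0.01 to 0.1, Sod2 from 0.08 to 0.31 and Cat from -0.02 to 0.16. The log2 differences of ratios with a library left out ran from -0.0012 to 0.33 for Sod2 to Sod1, -0.08 to 0.11 for Cat to Sod1, -1.15 to -0.44 for Hmox1 to Nfe2l2 and 1.17 to 1.63 for Nqo1 to Nfe2l2.

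With the replicate number as a block, 1999 genes were called, Nqo1 was 1.4 (adjusted p = 0.024 by edgeR) and Hmox1 -0.89 (adjusted p = 0.057 by edgeR), so no call among the 6 genes changed. Libraries of the same number did not deviate together (correlations -0.06, 0.03 and 0.09), and the best match of a library had its own number for 3 of 6. The lists of other pathway genes and cell type markers were not run for want of gene names. Hmox1, with 132 to 622 counts a library, and Nqo1, with 204 to 935, were the least deeply counted of the 6.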
